A study of Arabidopsis thaliana with 18 samples.

Results

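2A6 (AT1G03410) is a gene on chromosome 1 of Arabidopsis thaliana that encodes a protein of the 2-oxoglutarate- and iron-dependent dioxygenase family. It is 1 gene, followed through its probe set among 22746 tested probe sets on Affymetrix ATH1 arrays. The gene was selected on the levels of this probe set, on its differences between gcn2 and wild type and on its differences between polysomal and non-polysomal RNA. These values are therefore given as a description, without a test. A second probe set annotated to 2A6 alone took no part in the choice, but it read the same RNA samples and is described without a test as well.

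Dioxygenases of this family use molecular oxygen, iron and usually 2-oxoglutarate to hydroxylate or desaturate small molecules. In plants the family includes ACC oxidase, which makes ethylene, the oxidases that make and inactivate gibberellins, and enzymes of flavonoid, glucosinolate, coumarin and jasmonate metabolism. No substrate of 2A6 is given in the sources used here. A transcript that carries several ribosomes sediments with the polysomes in a sucrose gradient, while one with few or no ribosomes stays near the top. GCN2 is a protein kinase that slows translation initiation during amino acid starvation by phosphorylating the factor eIF2α.

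The samples were the aerial parts of 10-day-old seedlings of the line Landsberg erecta, either wild type or gcn2, harvested 4 h after the lights came on. They grew at 22 °C in 16 h days on plates with 1% sucrose, and no treatment is named in the labels. For each genotype 3 replicates of total RNA, of polysomal RNA (the 6 bottom gradient fractions pooled) and of non-polysomal RNA (the 6 top fractions pooled) were measured, which gives 18 arrays in 6 groups. The labels do not name the gcn2 allele or the number of lines, and they do not say that the replicates were grown separately.

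All values are log2 signals as the authors deposited them, on a scale where the array medians lay between 5.05 and 5.18 and the lower quartiles between 3.21 and 3.52. Arrays of 1 group correlated at 0.974 to 0.994. Leaf markers were high, with RCA, which activates Rubisco, between 12.26 and 14.11 and PSAN, a photosystem subunit, between 11.28 and 12.71. Of 14 listed leaf markers these 2 had a probe set annotated to 1 gene. Of 12 listed root markers 4 had one. The peroxidase genes AT3G01190 and AT5G17820 lay below the lower quartile of 12 and 16 of the 18 arrays, EXPA7 lay between 3.38 and 4.40, and PYK10, a beta-glucosidase of roots and seedlings, reached 11.13. The GCN2 transcript was not analysed here, and the genotypes rest on the labels.

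The level of 2A6 was highest in gcn2 non-polysomal RNA, at 7.46, 8.51 and 8.17 on the 3 arrays. All 3 of these arrays lay above the other 15. Next came gcn2 total RNA, at 6.45, 6.59 and 6.39, and wild-type non-polysomal RNA, at 6.01, 6.25 and 6.31. In gcn2 polysomal RNA the values were 5.92, 6.08 and 6.02. Wild-type total RNA gave 5.90, 4.75 and 6.04, with replicate 2 well below the other two arrays. The lowest level was in wild-type polysomal RNA, at 4.39, 4.53 and 4.86.

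In this order the group means were 8.04 ± 0.54, 6.48 ± 0.10, 6.19 ± 0.16, 6.00 ± 0.08, 5.56 ± 0.71 and 4.59 ± 0.24 (SD, n = 3 each). The first 2 neighbouring steps, from gcn2 non-polysomal to gcn2 total RNA and from there to wild-type non-polysomal RNA, showed no overlap of arrays, although the gap of the second step was only 0.08. The 3 lower steps overlapped, so wild-type non-polysomal, gcn2 polysomal and wild-type total RNA could not be ordered against their spread, nor could wild-type total against wild-type polysomal RNA. Within an array 2A6 stood between the 40.8 and 46.6 percentile of all probe sets in wild-type polysomal RNA and between the 85.8 and 93.3 percentile in gcn2 non-polysomal RNA. It lay above the lower quartile on all 18 arrays.

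**Figure D1:**
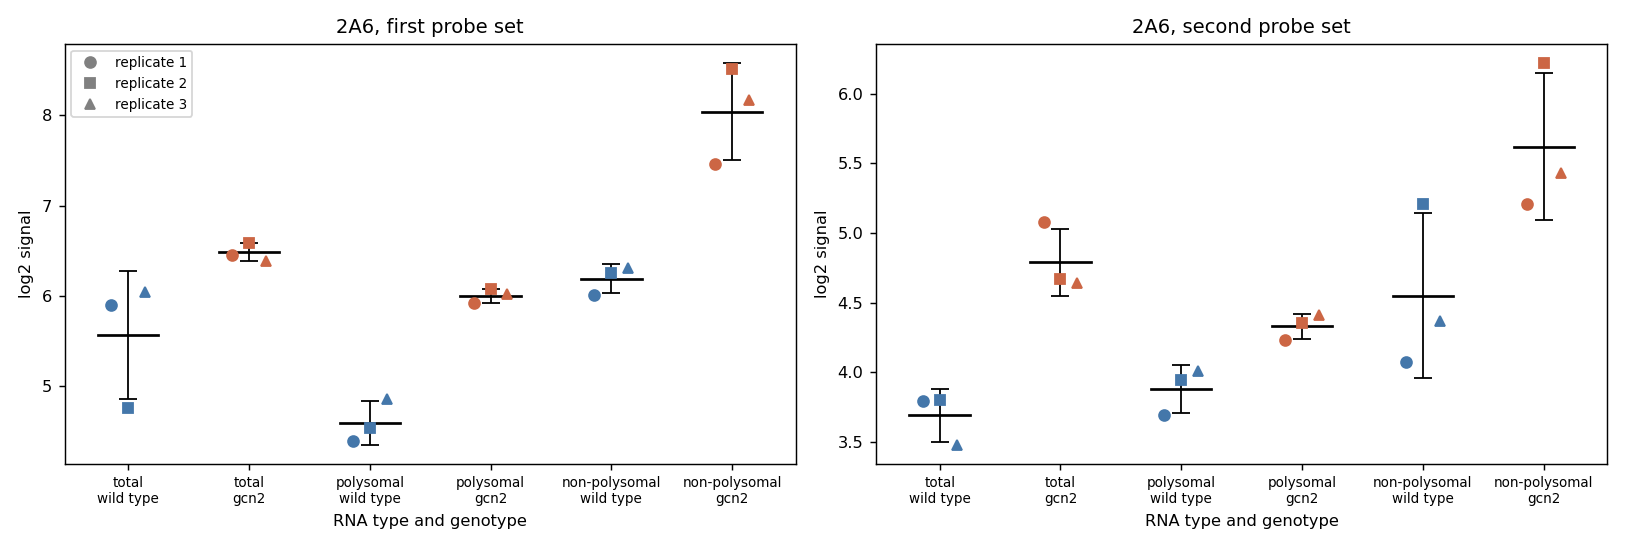
Log2 signal of both 2A6 probe sets (first left, second right, each on its own axis) on every array, by RNA type and genotype. Symbols are replicates, blue wild type and orange gcn2, horizontal lines are group means and bars are SD over 3 arrays. In all 3 RNA types the gcn2 arrays sit above the wild-type arrays, and for the first probe set wild-type total RNA replicate 2, at 4.75, sits apart from the other two.

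The comparison of genotypes asked how the level of 2A6 differed in gcn2. The signal was higher in gcn2 in all 3 RNA types, with no overlap between the genotypes in any of them. The difference was 0.91 in total RNA, 1.41 in polysomal RNA and 1.85 in non-polysomal RNA on the log2 scale (SE 0.27 each, n = 3 arrays per group). This corresponds to 1.88-fold, 2.66-fold and 3.61-fold. Without overlap, 3.40% of all tested probe sets were higher in gcn2 in total RNA, 7.75% in polysomal RNA and 6.50% in non-polysomal RNA, and 0.114% were so in all 3. By size 2A6 ranked 19, 18 and 12 among all probe sets from the highest gcn2 difference down in total, polysomal and non-polysomal RNA. In a bulk sample, more cells that express a gene and more RNA per cell cannot be told apart.

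The value in total RNA leaned on 1 array. When wild-type replicate 2 was left out it was 0.51, and over the 6 arrays left out in turn it ran from 0.51 to 1.15. The second probe set did not show a low value on that array (3.79, 3.80 and 3.48 in wild-type total RNA). In the fractions the replicate numbers pair the arrays, so the difference can be read within each number. In polysomal RNA gcn2 exceeded wild type by 1.53, 1.54 and 1.16, and in non-polysomal RNA by 1.44, 2.26 and 1.86. All 6 within-number differences were positive, which the lack of overlap between the genotypes already fixed.

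The second probe set had the same direction in each RNA type. Its difference between gcn2 and wild type was 1.10 in total RNA, 0.45 in polysomal RNA and 1.07 in non-polysomal RNA (SE 0.26 each, n = 3 per group). In total RNA the gcn2 arrays (5.08, 4.67 and 4.64) lay clear of wild type. In polysomal RNA 4.23, 4.35 and 4.41 in gcn2 stood against 3.69, 3.94 and 4.01 in wild type, also without overlap. In non-polysomal RNA wild type gave 4.07, 5.21 and 4.37 and gcn2 5.21, 6.22 and 5.43, so that the lowest gcn2 array (5.207) barely cleared the highest wild-type array (5.206). Replicate 2 was the highest in both genotypes there. Within the replicate numbers the differences were close together, at 1.14, 1.01 and 1.06 in non-polysomal and 0.54, 0.41 and 0.39 in polysomal RNA.

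The polysomal difference was thus 0.45 with one probe set and 1.41 with the other, while in total RNA it was 1.10 and 0.91. RefSeq lists 2 transcripts of 2A6. Which of them each probe set reads was not tested.

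Polysome loading, the polysomal minus the non-polysomal log2 signal, asked where in the gradient the 2A6 transcript lay. The signal was lower in polysomal than in non-polysomal RNA in both genotypes, with log2 differences of −1.60 in wild type and −2.04 in gcn2 (SE 0.27 each, n = 3 per fraction). These are 3.03-fold and 4.11-fold. The fractions did not overlap in either genotype, where 23.5% of all probe sets were lower without overlap in wild type and 18.7% in gcn2. Within the replicate numbers the loading was −1.62, −1.72 and −1.45 in wild type and −1.54, −2.43 and −2.15 in gcn2. The labels do not say that the fractions of a number came from the same gradient. From the most negative value up, 2A6 ranked 206 in wild type and 97 in gcn2 among 22746 probe sets.

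Loading in gcn2 minus loading in wild type was −0.44 (SE 0.39). This SE is from the fit without the pairing. A replicate block gave 0.37 on all 18 arrays and 0.23 on the 12 fraction arrays alone. Within the replicate numbers the difference in loading was 0.08, −0.72 and −0.70, so that 1 of the 3 pairs went the other way. Without gcn2 non-polysomal replicate 2 this difference was −0.21, and without gcn2 non-polysomal replicate 1 it was −0.74. With the second probe set the loading was −0.38, −1.26 and −0.35 in wild type and −0.98, −1.87 and −1.02 in gcn2. The means were −0.66 (SE 0.26) and −1.29 (SE 0.26). All 6 loading values were negative with each probe set, which the lack of overlap between the fractions already fixed. For the second probe set in wild type the gap between the fractions was only 0.05. The second probe set's loading in gcn2 minus that in wild type was −0.62 (SE 0.36), with −0.60, −0.61 and −0.67 within the replicate numbers, all of 1 sign. Its values leaned on single non-polysomal arrays. Without wild-type replicate 2 its wild-type loading was −0.33 and the difference in loading −0.95, and without wild-type replicate 1 or gcn2 replicate 2 the difference was −0.39 or −0.32.

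Total RNA lay between the fractions for the first probe set. Polysomal minus total was −0.97 in wild type and −0.47 in gcn2, and non-polysomal minus total was 0.63 and 1.57 (SE 0.27 each). The wild-type arrays overlapped in both of these comparisons, and the gcn2 arrays in neither. For the second probe set the wild-type polysomal level was not below total RNA, with a difference of 0.19 (SE 0.26) and overlapping arrays, and in gcn2 it was −0.47.

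All loading values are relative to the array-wide level, because every array was set to nearly the same median. With each array centred on its bacterial BioB and BioC control probe sets, which adds 1 amount to every loading value of a genotype, the loading of 2A6 became −0.66 in wild type and −1.19 in gcn2, and the all-probe-set median went from −0.07 to 0.86 and from −0.04 to 0.81. On that scale the second probe set changed sign in wild type, to 0.27, and stood at −0.44 in gcn2. Its polysomal difference between gcn2 and wild type was 0.19 there, and that of the first probe set 1.16. Against the median of all probe sets 2A6 was lower by the same amount on both scales, with −1.52 in wild type and −2.01 in gcn2.

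A sign of RNA integrity also moved with the groups. The mean excess of 3′ over 5′ signal of the Actin, GAPDH and ubiquitin controls was 3.25 ± 0.14 in wild-type and 3.13 ± 0.01 in gcn2 total RNA, and 3.69 ± 0.17 and 3.70 ± 0.21 in polysomal RNA (SD, n = 3 each). It was 3.89 ± 0.34 in wild-type and 4.53 ± 0.43 in gcn2 non-polysomal RNA, the group in which 2A6 was highest. The part of this excess in the loading values and in the non-polysomal difference was not tested.

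Other dioxygenases were set beside 2A6 from lists of 76 loci of the family. Of these, 38 loci besides 2A6 had a probe set annotated to 1 gene, among them 14 of the 15 listed close relatives of 2A6. So did 22 of 31 other loci of specialised metabolism, but only 1 of 5 ACC oxidases (AT1G12010), 1 of 17 gibberellin oxidases and 0 of 7 flavonoid dioxygenases. A locus without one may still be on the array, so the 38 are not a survey of the family. In 8 of the 38 the signal lay below the lower quartile on all 18 arrays. No dioxygenase among the 38 passed limma at an adjusted p of 0.05 between gcn2 and wild type in total, polysomal or non-polysomal RNA, where 0.0352%, 0.0220% and 0.0791% of all probe sets passed. With so few calls in all, a count of 0 among 38 is no result about the family. At an unadjusted p under 0.05 there were 1, 3 and 3, where 2.49%, 5.39% and 11.4% of all probe sets lay under it. The medians of the 38 were −0.00, 0.06 and −0.04, beside 0.01, 0.02 and 0.01 over all probe sets. Their ranges were −0.31 to 0.51 in total, −0.54 to 0.54 in polysomal and −0.65 to 0.66 in non-polysomal RNA.

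The ends of these ranges were single genes that did not pass the test. AT1G03400, the dioxygenase gene next to 2A6 described further on, was highest in total RNA, and AT5G20400 was lowest in polysomal RNA, at −0.54 (SE 0.22, limma adjusted p = 0.906). AOP3, a glucosinolate dioxygenase, was at 0.66 (SE 0.17, limma adjusted p = 0.146) in non-polysomal RNA. AT5G05600, one of the jasmonate-induced oxygenases that hydroxylate jasmonic acid, was at −0.65 (SE 0.27, limma adjusted p = 0.366) there, and its relative AT2G38240 at 0.54 (SE 0.19, limma adjusted p = 0.846) in polysomal RNA. Fitted on the 12 fraction arrays with a replicate block, AOP3 rose (limma adjusted p = 0.0136) and AT5G05600 fell (limma adjusted p = 0.046) in non-polysomal RNA. AT3G13610, the feruloyl-CoA hydroxylase of scopoletin synthesis, had the lowest value in total RNA, at −0.31 (SE 0.17, limma adjusted p = 1). GSL-OH (AT2G25450), a glucosinolate enzyme among the close relatives, was within −0.17 and −0.06 in the 3 RNA types.

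In loading, 7 of the 38 dioxygenases passed in wild type, 2 higher and 5 lower in polysomal RNA, and 7 in gcn2, also 2 higher and 5 lower. Of all probe sets 28.5% passed in each genotype, so the share of the 38 was not above the background. By direction the background was 15.2% higher and 13.3% lower in wild type and 15.1% and 13.4% in gcn2. AT1G06640, listed as a close relative of 2A6, had the most negative values, −2.08 (SE 0.24, limma adjusted p = 5.0e-06) in wild type and −1.91 (SE 0.24, limma adjusted p = 1.2e-05) in gcn2. Its polysomal arrays read 6.21, 6.78 and 6.83 in wild type against 8.10, 8.83 and 9.13 in non-polysomal RNA, and in gcn2 6.41, 6.67 and 6.56 against 8.03, 8.94 and 8.40. Neither genotype showed overlap. Its difference between gcn2 and wild type was 0.08 in total, −0.06 in polysomal and −0.23 in non-polysomal RNA (SE 0.24 each), and the genotypes overlapped in all 3.

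AT3G46490 fell in polysomal RNA by 1.14 in wild type and by 1.48 in gcn2 (SE 0.16 each, limma adjusted p = 3.87e-05 and 2.47e-06), and AT1G78550 fell by 0.81 and by 0.82 (SE 0.16 each, limma adjusted p = 6.24e-04 and 5.52e-04). AT3G60290 fell by 0.93 in gcn2 (SE 0.22, limma adjusted p = 0.00356). AT1G52820, which was below the lower quartile on every total and polysomal array, was at −0.50 in both genotypes (limma adjusted p = 0.0256 in wild type and 0.0242 in gcn2), and AT2G30840 at −0.51 in wild type (limma adjusted p = 0.0324). These 3 calls lay near the threshold. Of the 6 arrays left out in turn, 4 ended each wild-type call and 3 the gcn2 call, with limma adjusted p of up to 0.151. With a replicate block AT1G06620, at −0.42 in gcn2 (limma adjusted p = 0.0556), passed as well. On the other side AT5G59540, also a listed close relative, rose by 0.89 in wild type and 0.90 in gcn2 (SE 0.18 each, limma adjusted p = 0.00126 and 0.00106), and AT1G35190 rose by 0.69 and 0.48 (limma adjusted p = 0.0013 and 0.0158), the gcn2 call being lost without polysomal replicate 1 or 3 or non-polysomal replicate 3 (limma adjusted p = 0.0651, 0.0707 and 0.0807). With the control centring AT1G06640 alone of those that fell kept a call as lower, and AT1G78550 and AT1G52820 changed sign, as did AT2G30840 in wild type. The medians of the 38 were −0.17 in wild type and −0.02 in gcn2, beside −0.07 and −0.04 over all probe sets. The test of a difference in loading between the genotypes passed for 0 of the 38 (limma, with 0 at an unadjusted p under 0.05), where 0.00440% of all probe sets passed and 5.06% lay under that unadjusted p.

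**Figure D2:**
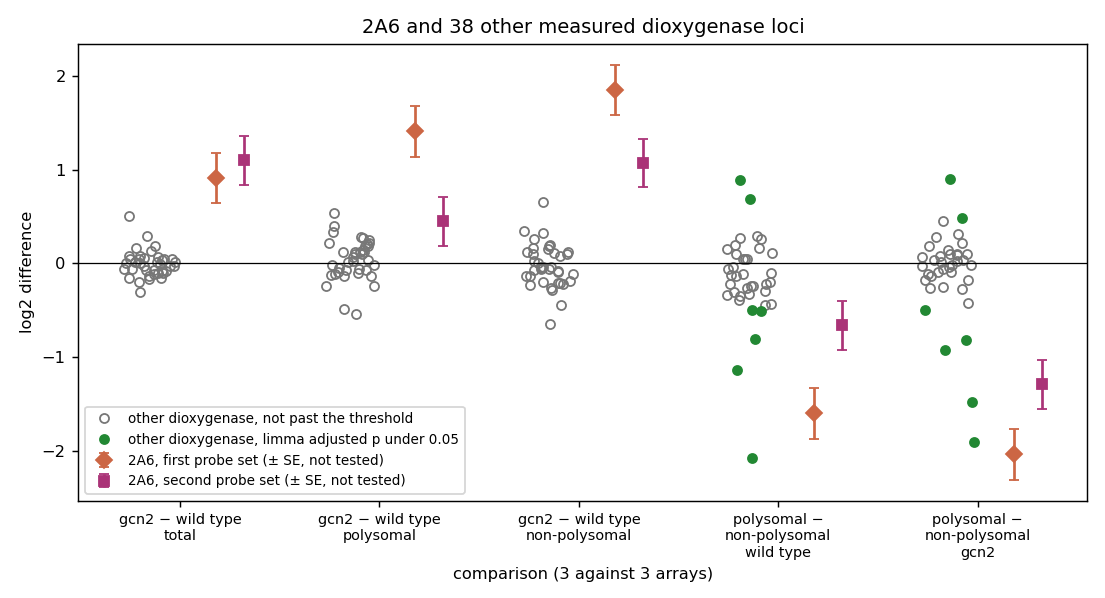
Log2 differences of 2A6 (first probe set, orange diamonds, second, purple squares, bars are moderated SE) and of 38 other dioxygenase loci (circles, filled green where limma's adjusted p was under 0.05) in 5 comparisons of 3 against 3 arrays. The other loci lie between −0.65 and 0.66 in the genotype comparisons, while in loading AT1G06640 lies at −2.08 and −1.91.

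The gene order of the TAIR10.1 assembly places AT1G03400, another dioxygenase of the listed close relatives, directly before 2A6. Its arrays read 6.13, 6.57 and 5.17 in wild-type and 6.61, 6.54 and 6.23 in gcn2 total RNA. Here replicate 3, not replicate 2, was the low wild-type array, and the genotypes overlapped in all 3 RNA types. The difference between gcn2 and wild type was 0.51 (SE 0.24) in total, 0.28 (SE 0.24) in polysomal and 0.12 (SE 0.24) in non-polysomal RNA, with limma adjusted p of 1, 0.965 and 0.903. Its loading was −0.26 in wild type and −0.11 in gcn2. On the other side follow a long noncoding RNA locus and Sadhu4-2, a pseudogene of a retroposon family, neither of which was analysed here.

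Of the 5 measured loci on each side of 2A6, 0 of 10 passed limma between the genotypes in any RNA type, beside the 0.0352%, 0.0220% and 0.0791% of all probe sets given above. At an unadjusted p under 0.05 there were 3, 0 and 0 in total, polysomal and non-polysomal RNA, against 2.49%, 5.39% and 11.4% of all probe sets. With so few calls in all, a count of 0 among 10 is no result about the neighbours. Their differences ran from −0.58 to 0.51, from −0.46 to 0.28 and from −0.16 to 0.28. NET3A, an actin-binding membrane protein, had the lowest value in total RNA, at −0.58 (SE 0.24, limma adjusted p = 1). In loading 0 of 10 passed in wild type and 3 in gcn2, against 28.5% of all probe sets. AT1G03350 fell by 0.83 (SE 0.17) and AT1G03520 by 0.98 (SE 0.24), while AT1G03440 rose by 0.56 (SE 0.15). With the control centring both falls lost their calls, with values of 0.02 and −0.13, and AT1G03440 kept its call.

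**Figure D3:**
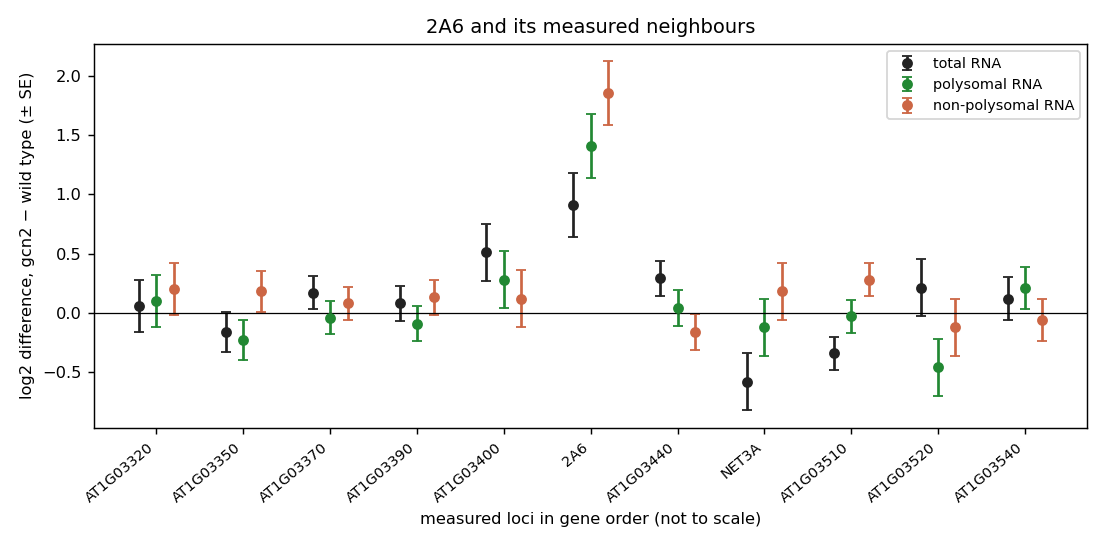
Log2 difference between gcn2 and wild type (bars are moderated SE, 3 against 3 arrays) in total, polysomal and non-polysomal RNA for 2A6 and the 5 measured loci on each side, in gene order and not to scale. The 10 neighbours lie between −0.58 and 0.51, and 2A6 at 0.91, 1.41 and 1.85.

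The transcripts most like 2A6 were taken from 13512 other probe sets with exactly 1 gene, by Pearson's r of the log2 signal over the 18 arrays. The arrays share replicate numbers and groups, so r is a description of likeness. AT1G58025 was the most alike (r = 0.900), followed by QQS, a species-specific gene named for its effect on leaf starch (r = 0.881), AT4G38950 (r = 0.879), AT1G35612 (r = 0.872) and AT3G13130 (r = 0.871). The second probe set of 2A6 came at rank 8 (r = 0.848). In all, 22 probe sets exceeded an r of 0.8, and the median was 0.14.

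AT1G58025 read 5.11, 4.17 and 4.86 in wild-type and 8.93, 8.86 and 8.76 in gcn2 total RNA. Its difference between gcn2 and wild type was 4.14 in total, 3.69 in polysomal and 3.66 in non-polysomal RNA (SE 0.37 each), with a loading of −2.63 in wild type and −2.60 in gcn2. The pattern of 2A6 was of the same direction in each of these 5 values. QQS differed by 1.52, 1.22 and 2.49 (SE 0.22 each) in the 3 RNA types, and its loading was −0.60 and −1.86. In wild-type total and polysomal RNA QQS lay below the lower quartile on all 3 arrays, so its differences there are against signals near background.

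The other three were alike in part of the pattern. AT4G38950 was higher in gcn2 by 0.87 (SE 0.19) in non-polysomal RNA and by 0.01 (SE 0.19) in total RNA, where the genotypes overlapped. AT1G35612 was higher by 0.72, 0.50 and 1.87 (SE 0.21 each) and lay below the lower quartile in all wild-type arrays. It also lay below it on all 3 gcn2 polysomal arrays and on 1 gcn2 total array, so its polysomal difference was between signals near background. AT3G13130 spanned only 2.74 to 3.35 over all arrays. It lay below the lower quartile on all 3 arrays of every group but gcn2 non-polysomal RNA, and there on 2 of 3, so its likeness was in signals near background. When each group's mean was taken away, r with 2A6 was 0.590 for AT1G58025, 0.522 for AT4G38950, 0.443 for AT1G35612, 0.794 for AT3G13130, 0.063 for QQS and 0.314 for the second probe set of 2A6, so the likeness of QQS came from the group means.

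The most opposite were AT5G62460 (r = −0.868), AT2G20230 (r = −0.862) and AT1G78150 (r = −0.844). AT5G62460 was lower in gcn2 by 0.15, 0.34 and 0.47 in the 3 RNA types and was higher in polysomal than in non-polysomal RNA by 0.44 in wild type and 0.57 in gcn2.

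**Figure D4:**
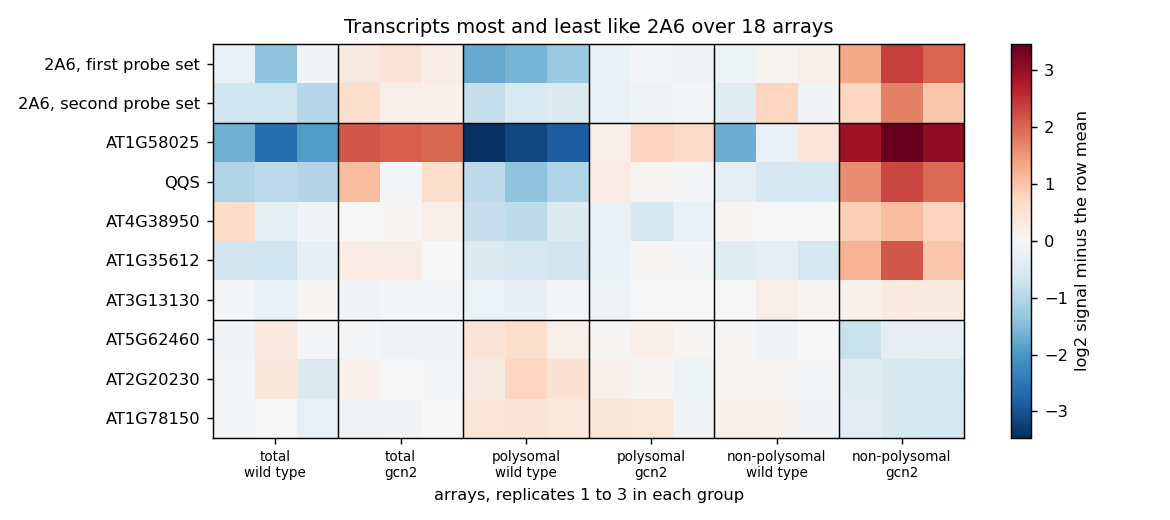
Log2 signal minus the row's mean on each of the 18 arrays for both probe sets of 2A6, the 5 transcripts with the highest and the 3 with the lowest Pearson's r with the first. Red is above and blue below the mean of the row, and gcn2 non-polysomal RNA is the highest group for both 2A6 probe sets and the 5 transcripts under them.

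Probe sets that were above wild type in gcn2 in all 3 RNA types and below non-polysomal RNA in polysomal RNA in both genotypes, each without overlap, numbered 9 of 22746 (0.0396%), while 11.9% of all met the second condition alone or with the first. These conditions restate the pattern of the first probe set of 2A6, on which the gene was chosen, so it was bound to be among them. The second probe set was among them by narrow gaps. Its gap was 0.05 in wild-type loading, and in non-polysomal RNA 5.207 in gcn2 stood against 5.206 in wild type. The others were AT1G58025, QQS, AT3G30200, AT1G35650, AT3G51750 and 2 probe sets that the annotation used here does not list, and they were picked after their values were seen.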

How the data were processed

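The deposited table held 22810 probe sets on 18 arrays as log2 signals, which the authors computed before they deposited them. The submitters' processing notes list RMA, affy and MAS5 with no role or version, and which of them made the values is unknown here. The 64 control probe sets were left out and 22746 were tested. Of these, 13513 had exactly 1 gene in the platform annotation, 503 several and 8730 were not listed, and 13436 matched RefSeq's TAIR10.1 gene table, used for names and gene order only. A locus was counted as measured only if it had a probe set with exactly 1 gene, so other loci may still be on the array. A locus with several such probe sets was represented by the one with the highest mean. All 18 arrays in 6 groups were fitted in limma 3.58.1 under R 4.3.3 (group means, empirical Bayes, 12 residual degrees of freedom), with Benjamini-Hochberg adjustment over 22746 probe sets at 0.05 and no fold threshold. The script was tested on simulated data. SE is limma's moderated standard error from this fit, which does not use the replicate numbers unless a block is named. The number of arrays limits the precision. The p-values rest on differences among these arrays alone, and that spread may be technical. With 3 against 3 arrays an exact permutation test cannot go below 0.1, so none was run.

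Arrays of equal replicate number deviated together in all 6 pairs of fraction groups (r of 0.184 to 0.588, above 0.1), so the numbers pair the fractions. Wild-type total RNA also passed 0.1 with gcn2 polysomal (0.147 to 0.305), wild-type non-polysomal (0.177 to 0.243) and gcn2 non-polysomal RNA (0.244 to 0.277). With wild-type polysomal RNA it did not (0.00117 to 0.404), and gcn2 total RNA passed with no group. None of 153 pairs of arrays held identical values. The gene, the lists and the tests were chosen with earlier results of these data known. The lists of 76 dioxygenases, 14 leaf and 12 root markers were written by hand, and 39 dioxygenases, 2A6 included, were measured. Named were 2A6, up to 4 dioxygenases per direction past the threshold in each comparison, the ends of the dioxygenases' ranges between genotypes, 5 measured loci on each side, and the 5 most and 3 least alike probe sets. Dioxygenases named at the ends of ranges or beyond 4 were chosen after their values were seen. Naming the relatives of highest protein identity was planned, but no protein sequences were used here. Alternatives were each array left out, quantile normalization, median or control centring, a replicate block, array weights, a filter on dim probe sets, another prior and fewer arrays.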

Additional observations from a re-analysis of the deposited data

Results flagged for a closer look

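AT1G04350 is a dioxygenase of the listed close relatives of 2A6. Its polysomal minus non-polysomal difference was 0.15 ± 0.08 in wild type and −0.06 ± 0.03 in gcn2 (SD over 3 replicate numbers each). Every wild-type value was positive and every gcn2 value negative. The locus was flagged because these values differed between the genotypes. The share of all probe sets that separate in this way is not given here, so the separation is no result about the locus. The difference between the genotypes was −0.21, and it did not pass its test (limma adjusted p = 0.978).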

How the results depend on the processing

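Over all alternatives run, the 6 differences of 2A6 kept their direction. They stayed within 1 SD of the replicates, except with each array centred on its BioB and BioC controls, where the polysomal difference between gcn2 and wild type was 1.16 and loading was −0.66 in wild type and −1.19 in gcn2. With single arrays left out the ranges were 0.51 to 1.15 in total, 1.31 to 1.54 in polysomal and 1.62 to 2.15 in non-polysomal RNA, −1.73 to −1.50 for wild-type and −2.33 to −1.81 for gcn2 loading, and −0.74 to −0.21 for the difference in loading. The replicate block left all of these estimates as they were, because each number occurs once in each group, but it lowered the SE. For the difference in loading the SE was 0.37 with the block on all 18 arrays, beside 0.39 without it. With the block on the 12 fraction arrays alone, which leaves out total RNA, it was 0.23. For each other comparison of fraction arrays the SE was 0.26 on 18 and 0.16 on 12 arrays, beside 0.27 without the block. Most of the fall thus came only where total RNA was also left out. Dioxygenases past the threshold between the genotypes were 0 in every RNA type and alternative but 1, with 2 in non-polysomal RNA under the replicate block on 12 fraction arrays. With single arrays left out, the 7 in loading became 5 to 8 for wild type and 5 to 7 for gcn2, and the replicate block gave 7 and 8. It was 26 in wild type and 28 in gcn2 with control centring, where 25 and 27 were higher, as the uniform shift implies, and 13 in wild type with array weights, 2 higher and 11 lower, for which the cause was not tested. AT1G52820 and AT2G30840 lost their wild-type calls in 5 of 15 alternatives each, and in gcn2 AT1G35190 lost its call in 5 and AT1G52820 in 6 of 15. Signal near background limits the 8 dioxygenases that were dim on all 18 arrays.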
